A study of Mus musculus with 8 samples.

Results

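The control-only regions are stretches of accessible chromatin on chromosomes 1 to 19 that had a peak in both control libraries and in none of the 6 libraries of mice labelled as carrying Mx1-Cre. To find them, the peaks of all 8 lists were merged wherever they overlapped by at least 1 bp, and each merged region was called in every library with a peak in it. The rule gave 692 regions, which is 0.63% of the 109822 merged regions on these chromosomes. It kept 1.32% of the 52260 regions called in both control libraries. Since the calls in all 8 libraries chose them, the counts, widths, scores and distances of these regions are given as a description with no test.

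ATAC-seq uses the Tn5 transposase, which inserts sequencing adapters where DNA is not covered by nucleosomes or other proteins, so a peak marks an accessible stretch such as an active promoter or enhancer. The cells were selected with magnetic beads from mouse bone marrow for c-Kit, the receptor for stem cell factor that blood stem and progenitor cells carry. In such cells the set of accessible enhancers differs between lineages and changes as cells mature. Cohesin, whose ring contains the Smc3 subunit, holds chromosome loops that bring enhancers and promoters together, and its loops often end at sites bound by CTCF. Flt3 is a cytokine receptor of early progenitors, and its internal tandem duplication (Flt3-ITD) signals without ligand and activates Stat5.

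The genotypes were Smc3 fl/del Flt3-ITD, Flt3-ITD, Smc3 del/+ and control, with 2 libraries each. The titles mark the first 3 as Mx1-Cre positive and name the combined genotype as heterozygous for Smc3. Control mice were Smc3 fl/+, so they carried 1 floxed allele, and had no Mx1-Cre. All mice were given PIpC, an interferon inducer that switches on the Mx1 promoter, and cells were taken 4 weeks later, 50000 per library. The Mx1 promoter is not restricted to blood cells, and the share of recombined cells is not stated. Mx1-Cre was absent from control and present in the other 3 genotypes, so its part in a control-only call cannot be told apart from that of the other alleles. In their descriptions, the libraries titled Flt3-ITD are said to hold a floxed Smc3 allele and those titled Smc3 del/+ the Flt3-ITD allele. This contradiction cannot alter which regions are control-only, because both groups lie among the 6 libraries, but any value given for either genotype rests on its title. Regions are located by mm9 coordinates counted from 1, and the genes, sequences and cell type markers at these positions were not analysed here. Marrow came from individual mice per the labels, which leave unsaid whether 1 animal gave more than 1 library, so the spread between libraries may be technical. Fewer cells with an open site and a site less open in each cell cannot be told apart in such bulk samples.

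List length bears on every count. On chromosomes 1 to 19, lists held 78302 and 77849 peaks in Smc3 fl/del Flt3-ITD, 64602 and 61699 in Flt3-ITD, and 59641 and 61061 in Smc3 del/+. Control replicates 1 and 2 held 71835 and 62421. The Mx1-Cre mean thus pools Smc3 fl/del Flt3-ITD lists longer than both control lists with Smc3 del/+ lists shorter than both. The mean was 67192 ± 8585 (SD, n = 6) in Mx1-Cre libraries and 67128 ± 6657 (SD, n = 2) in control libraries, a difference of 64.3 peaks (exact two-sided permutation p = 1, adjusted 1). Median peak width was 420.5 ± 12.5 bp (SD, n = 6) in Mx1-Cre libraries and 408.5 ± 0.707 bp (SD, n = 2) in control libraries (difference 12 bp, exact two-sided permutation p = 0.393, adjusted over 2 tests 0.786). The smallest p these 28 assignments allow is 0.0357, so after adjustment neither difference could reach 0.05 unless both did. The lists hold no read counts, so sequencing depth is unknown.

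Few control regions lacked a call in every Mx1-Cre library. Of the 52260 regions called in both control libraries, 35155 (67.3%) were called in all 6 Mx1-Cre libraries. Another 6073 regions were called in 5 of the 6, 3959 in 4, 2549 in 3, 2655 in 2, 1177 in 1 and 692 in none. Regions 1 call short of the rule were more numerous than those inside it. The extra call came most often from Smc3 del/+ libraries, with 234 and 293 regions in replicates 1 and 2. It came from Smc3 fl/del Flt3-ITD libraries in 217 and 167 regions, and from Flt3-ITD libraries in 152 and 114. Both Smc3 del/+ libraries thus lay above the other 4, although their autosomal lists were the shortest of the series (59641 and 61061 peaks). These single extra calls had low scores in the library that made them, with a median percentile between 15.1 and 21.4 over the 6 libraries.

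**Figure D1:**
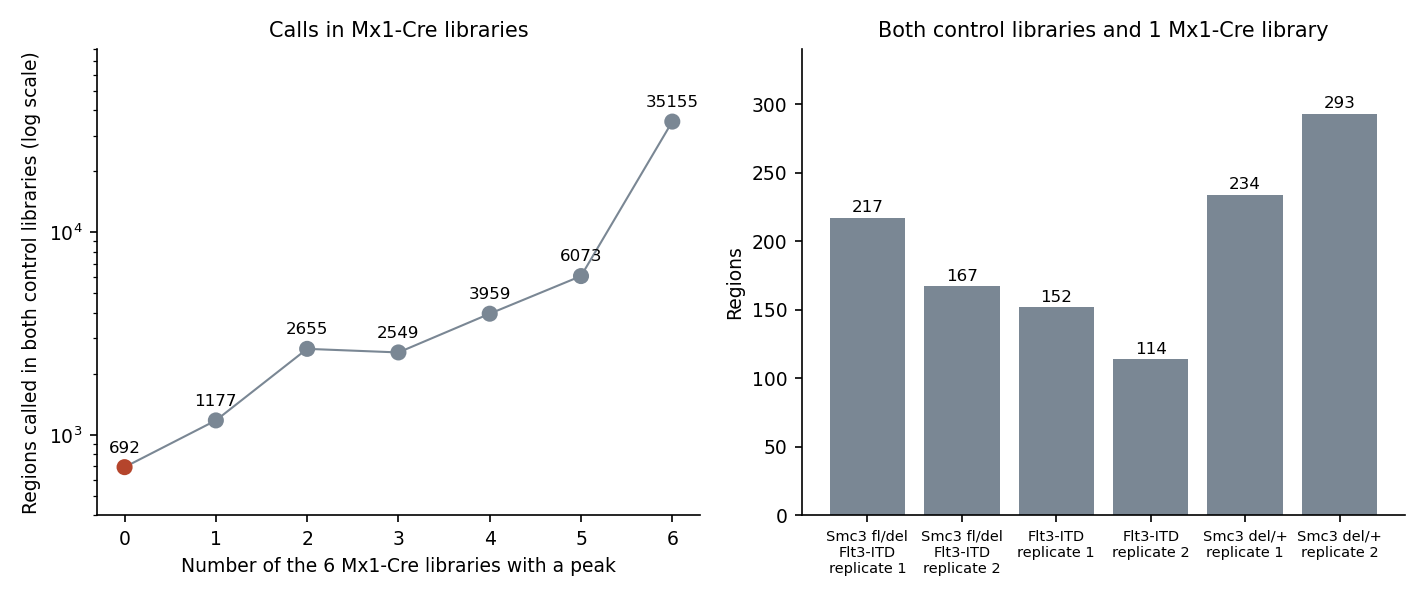
Left, regions called in both control libraries (y axis, log scale) by the number of the 6 Mx1-Cre libraries that also called them; the red point marks the 692 control-only regions and 35155 regions were called in all 6. Right, the 1177 regions with 1 such call by the library that made it, from 114 in Flt3-ITD replicate 2 to 293 in Smc3 del/+ replicate 2.

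On the other side of the rule, regions with no Mx1-Cre call were far more often seen in a lone control library than in both. Of the 109822 merged regions, 3766 were called in control replicate 1 and nowhere else, and 1887 in control replicate 2 and nowhere else. Lone-library regions also outnumbered genotype-only regions elsewhere. They numbered 5775 and 5841 in Smc3 fl/del Flt3-ITD (against 4975), 2254 and 1802 in Flt3-ITD (against 363), and 2174 and 2454 in Smc3 del/+ (against 629). The lone control regions had a median score percentile of 12.3 in either list and a median width of 406.5 and 394 bp in replicates 1 and 2. The reverse pattern, a call in all 6 Mx1-Cre libraries and in no control library, was held by 238 of the 109822 regions. It asks for calls in 6 libraries of 3 genotypes rather than in 2 libraries of 1, so 238 and 692 are not like counts. The count of 692 rests on both control lists: without control replicate 1 the rule kept 2753 regions, and without control replicate 2 it kept 4619. With both Smc3 del/+ libraries set aside it kept 2491, against 1502 without both Smc3 fl/del Flt3-ITD libraries and 1173 without both Flt3-ITD libraries.

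The control-only regions carried weak peaks. The authors give each peak a score between 0.99 and 1, which is used here only as a rank within its own list, where a percentile of 100 would be the highest and peaks tied at exactly 1 share a percentile near 84. Control-only regions had a median percentile of 21.4 in control replicate 1 (quartiles 10.8 and 35.3) and 16.9 in replicate 2 (quartiles 8.05 and 27.0). The 51568 other regions called in both control libraries had medians of 63.1 and 57.1. Both peaks lay in the lower 50% of their lists in 629 control-only regions (90.9%), against 30.3% of the other regions. Only 20 (2.89%) had both peaks in the upper 50%, against 54.9% of the other regions, and 13 had a score of exactly 1 in both lists, against 18262 (35.4%) of the others. Regions shared with all 6 Mx1-Cre libraries scored highest. In control replicate 1 the median percentile was 21.4 with none, 25.2 with 1, 35.8 with 2, 32.3 with 3, 37.1 with 4, 44.8 with 5 and 84.6 with all 6.

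**Figure D2:**
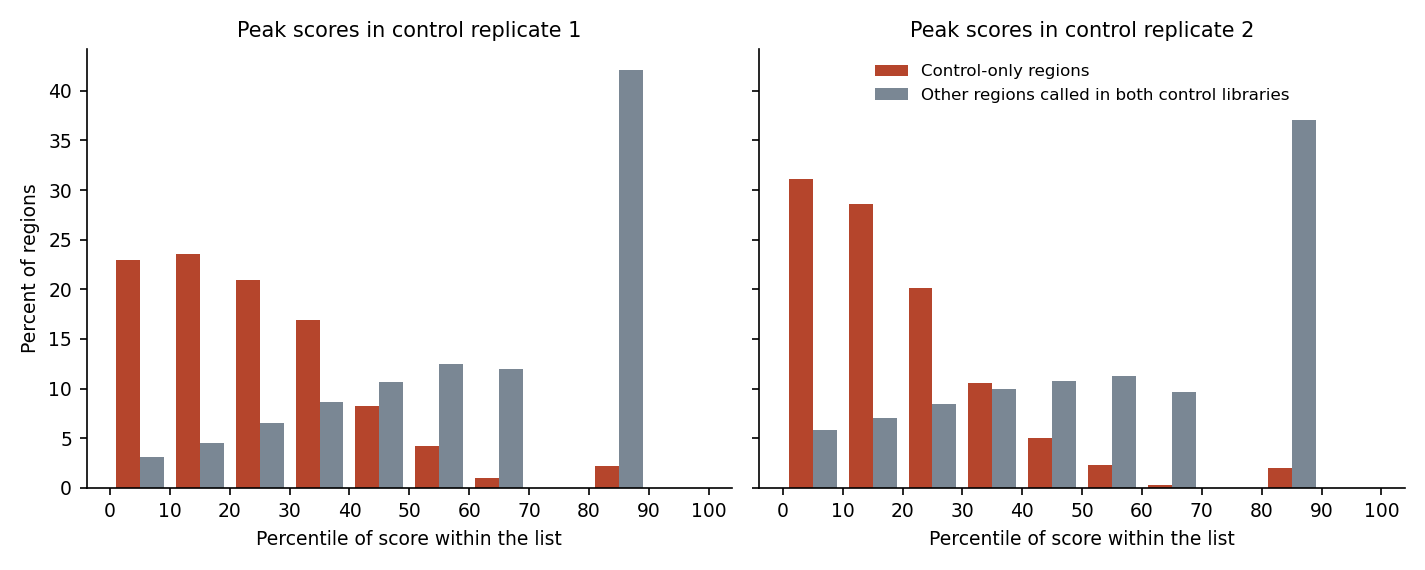
Percent of regions (y axis) in each bin of 10 score percentiles within the list (x axis) for control replicates 1 and 2; red bars are the 692 control-only regions and grey bars the 51568 other regions called in both control libraries. Control-only regions crowd at low percentiles (medians 21.4 and 16.9), whereas the largest grey bar holds the peaks tied at a score of 1.

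Within a control-only region the replicates' peaks overlapped by a median of 350 bp (lowest 1 bp, highest 1395 bp), which was 47.9% of the span they covered together. Their midpoints lay a median of 112 bp apart. In 49 regions (7.08%) the overlap was under 50 bp, just inside the merging rule. Among the other regions called in both control libraries the median overlap was also 350 bp, and it was under 50 bp or absent in 12.9%.

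Peak width in the control-only regions followed the pattern of the whole lists, with a main class near 400 bp and a second class of wide peaks. The widest peak in the region measured a median of 427.5 bp in control replicate 1 and 435 bp in replicate 2, and regions ran between 263 and 1943 bp with a median of 770.5 bp. With 1 control list left to set the regions, the median width was 400 bp without control replicate 1 and 408 bp without control replicate 2. A width of 300 to 500 bp was seen in 53.5% and 51.7% of the regions in replicates 1 and 2, against 61.2% and 60.6% of all autosomal peaks of these lists. Peaks of 700 bp or more made up 28.5% and 27.3%, against 20.5% and 21.1% of all peaks. The replicates often differed in class at the same place. A wide peak stood in both libraries in 72 regions, in 1 of them in 242 and in neither in 378. In 226 regions (32.7%) the wider peak was at least 2 times the narrower, against 23.0% of the other regions called in both control libraries. The widest region, chr13:23833584-23835526, joined peaks of 982 bp in control replicate 1 and 1015 bp in replicate 2.

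Many control-only regions had a peak of the Mx1-Cre libraries close by, in about the same share as other control regions. A peak of at least 1 Mx1-Cre library lay within 1 kb of 238 control-only regions (34.4%), and the other regions called in both control libraries had such a neighbour in a separate region in 35.9%. The median distance was 2357.5 bp for control-only regions and 1808 bp for the others. At both ends of the scale the control-only regions were the more frequent. A Mx1-Cre peak lay within 100 bp of 11.3% of them, against 6.15% of the other regions. No Mx1-Cre peak in another region lay within 10 kb of 140 (20.2%), against 13.2% of the other regions, and none lay within 50 kb of 20 (2.89%), against 1.47%. The other regions had already been merged with Mx1-Cre peaks, and their distances run from the edges of these wider regions. Their median width was 1129 bp, against 770.5 bp for control-only regions. How far this merging sets the difference at short distance was not tested. By library, 155 and 145 of the 692 had a Smc3 fl/del Flt3-ITD peak within 1 kb, 135 and 132 had a Flt3-ITD peak, and 127 and 139 had a Smc3 del/+ peak. In percent these were 22.4 and 21.0, 19.5 and 19.1, and 18.4 and 20.1. Among the other regions, measured to another region, the percentages were 19.5 and 19.2, 18.9 and 18.2, and 18.0 and 18.0 in the same order. All 6 Mx1-Cre libraries had a peak within 1 kb of 76 control-only regions, and no Mx1-Cre library had one near 454.

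High-scoring control-only regions lay near Mx1-Cre peaks. Among the 20 control-only regions with both peaks in the upper 50% of their lists, 19 lay within 1 kb of a Mx1-Cre peak. The exception, chr5:125884413-125884790, had its nearest Mx1-Cre peak 1372 bp away. Of the other regions of that rank, 39.1% had a Mx1-Cre peak in another region within 1 kb. Each of them also held a Mx1-Cre peak inside it, which was not counted, so the sets are not measured alike. In lower classes of score the share of control-only regions was 39.2% (40 of 102), 29.2% (76 of 260) and 33.2% (103 of 310). It was 33.2%, 31.3% and 30.3% for other regions of the same rank, measured to another region. All 13 regions with a score of exactly 1 in both lists lay within 1 kb of a Mx1-Cre peak. None of the 454 regions farther away had such a score. Among regions called only in another genotype with a score of exactly 1 in both its lists, a peak of the other genotypes lay within 1 kb of 21 of 35 for Smc3 fl/del Flt3-ITD, 9 of 10 for Flt3-ITD and 15 of 15 for Smc3 del/+. The 238 near regions were also narrower, with a median of 517.5 bp, against 842 bp for the 314 regions at 1 to 10 kb and 818.5 bp for the 140 regions beyond 10 kb. The rule left out any region that overlapped a Mx1-Cre peak, and a wide region close to one is more prone to overlap it. How far this sets the difference in width was not tested.

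**Figure D3:**
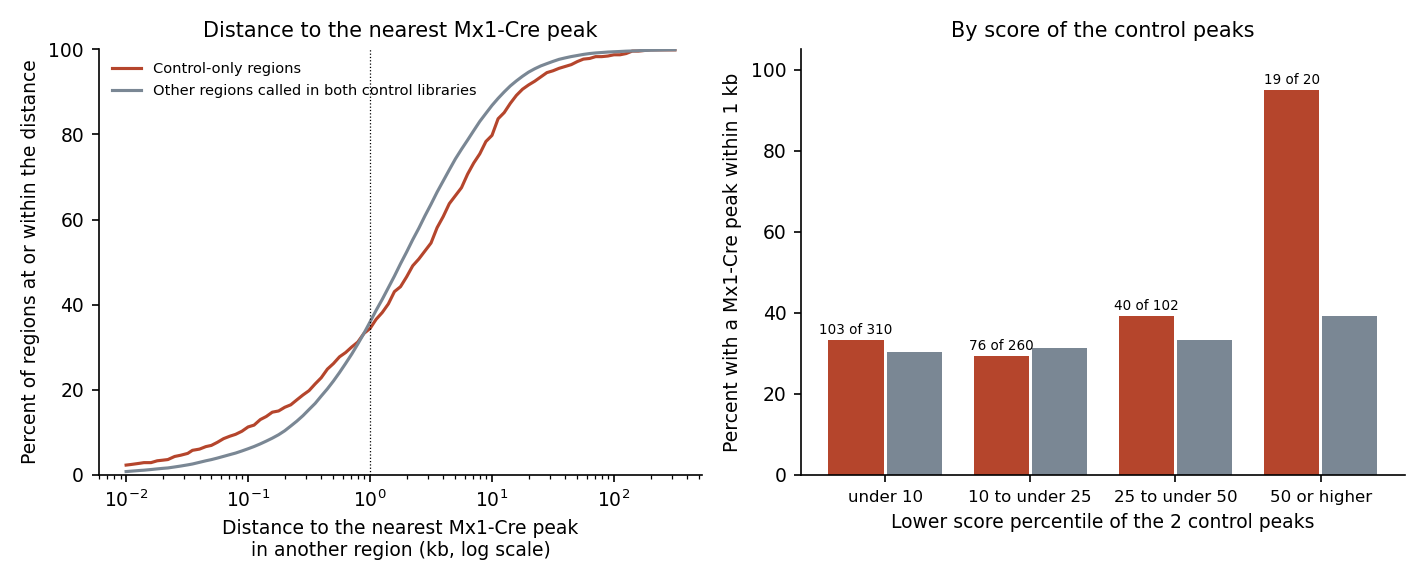
Left, percent of regions (y axis) with a Mx1-Cre peak in another region at or within a distance (x axis, kb, log scale). Red is control-only regions and grey the other regions called in both control libraries, whose own Mx1-Cre peaks are not counted. The dotted line marks 1 kb, where the curves stand at 34.4% and 35.9%. Right, percent with such a peak within 1 kb by the lower of the control percentiles (classes of percentile). In the highest class, 19 of 20 control-only regions had one.

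At 7 control-only regions the Mx1-Cre libraries placed their peak beside the control peak. At each of these, all 6 Mx1-Cre libraries had a peak within 1 kb of the control-only region and neither control library had another peak within that distance. They were picked out after the distances were seen. Of the 42 Mx1-Cre peaks nearest to them, 36 had a score of exactly 1, and at 6 of the 7 sites all nearest Mx1-Cre peaks lay on the same side. At 6 of the 7 sites, both control peaks had a score of exactly 1.

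The clearest was chr13:114584361-114584795. Peaks of the Mx1-Cre libraries began 52 bp past its end in both Smc3 fl/del Flt3-ITD and both Flt3-ITD libraries, and 56 and 110 bp past it in Smc3 del/+ replicates 1 and 2, with widths of 294 to 361 bp. The control peaks filled the region at 435 and 427 bp wide, and the next control peak was 4282 bp away. All 8 peaks had a score of exactly 1. At chr10:110976906-110977291 the Mx1-Cre peaks began 125 and 122 bp past the end in Smc3 fl/del Flt3-ITD, 179 and 115 bp in Flt3-ITD, and 124 and 145 bp in Smc3 del/+ libraries. Control peaks there were 386 and 238 bp wide, and again every score was exactly 1.

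At chr17:66204395-66204768 the Mx1-Cre peaks ended 679 and 771 bp (Smc3 fl/del Flt3-ITD), 768 and 772 bp (Flt3-ITD), and 689 and 684 bp (Smc3 del/+) before the region, whose control peaks were 374 and 334 bp wide. At chr16:96303217-96303636 they began 529 and 857 bp, 543 and 608 bp, and 546 and 595 bp past it in the same order of genotypes, and the control peaks were 365 and 420 bp wide. No Mx1-Cre peak came nearer than 529 bp here. That no further control peak lay within 1 kb was a condition for choosing the site. At chr2:30785122-30785560 the gaps were 457 and 429 bp in Smc3 fl/del Flt3-ITD, 440 and 399 bp in Flt3-ITD, and 8 and 525 bp in Smc3 del/+ libraries, against control peaks of 439 and 399 bp inside the region.

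At chr13:21872325-21873115, where the control peaks were 791 and 778 bp wide, 5 of the 6 nearest Mx1-Cre peaks lay before the region at 469 to 637 bp. That of Smc3 fl/del Flt3-ITD replicate 1 lay 421 bp past it and stood at percentile 4.80, and the same library also had a peak with a score of exactly 1 on the side of the other 5. At chr1:167774457-167775019 the Mx1-Cre peaks began 17 and 398 bp, 363 and 347 bp, and 61 and 365 bp past the region in Smc3 fl/del Flt3-ITD, Flt3-ITD and Smc3 del/+ libraries. The control peaks there were 364 and 505 bp wide and stood at percentiles 54.4 and 43.4.

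**Figure D4:**
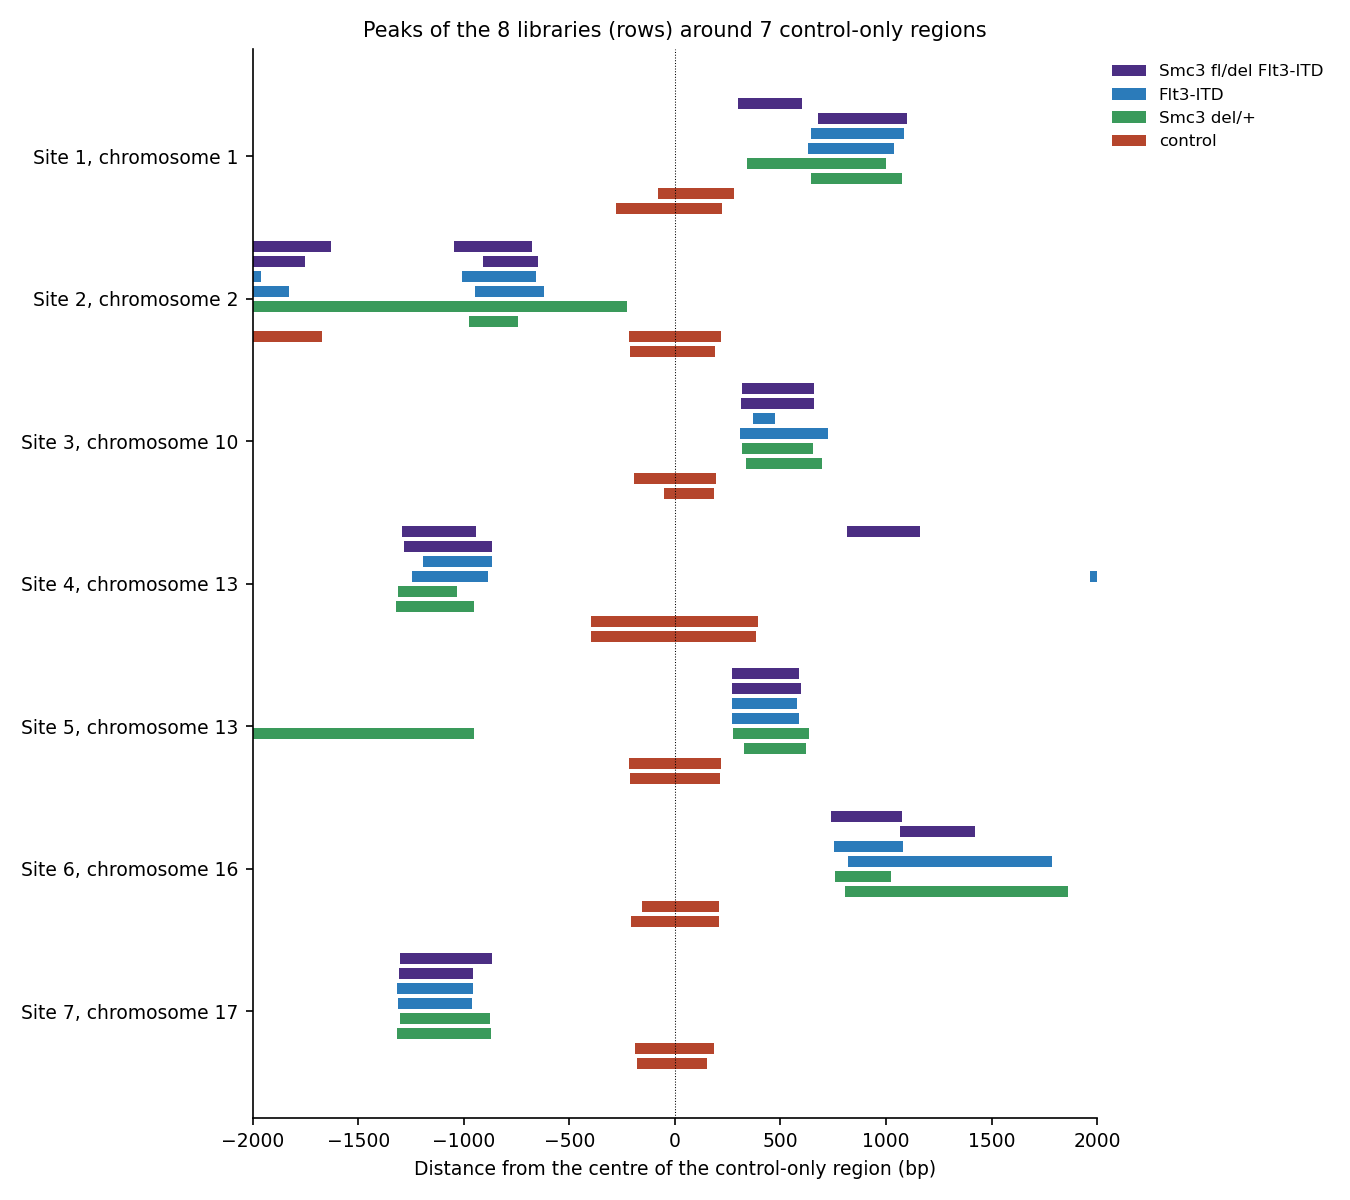
Peaks (bars) of the 8 libraries, 1 row each, around the 7 control-only regions that had a peak of all 6 Mx1-Cre libraries within 1 kb and no further control peak within 1 kb; the x axis is the distance in bp from the centre of the control-only region. At sites 1, 3, 5 and 6 the nearest Mx1-Cre peaks lie to the right of the control peaks and at sites 2 and 7 to the left.

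Such side-by-side calls were not limited to control. They made up 7 of the 692 control-only regions, and the same description gave 9 of 4975 regions called only in Smc3 fl/del Flt3-ITD, 7 of 363 called only in Flt3-ITD and 14 of 629 called only in Smc3 del/+. In percent that was 1.01 for control, 0.181 for Smc3 fl/del Flt3-ITD, 1.93 for Flt3-ITD and 2.23 for Smc3 del/+. At the other 69 control-only regions with all 6 Mx1-Cre libraries within 1 kb, a control library had a further peak within 1 kb as well. Among the 238 near regions, the nearest region with a Mx1-Cre call was called in both control libraries in 111, in 1 control library in 34 and in neither in 93. It was called in all 8 libraries in 75.

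The remaining highest-ranked control-only regions showed other arrangements. At chr3:137609690-137610469, with control peaks of 355 and 780 bp, the Mx1-Cre libraries had peaks 306 to 469 bp away and a control library had a further peak 530 bp away. At chr11:70466772-70467647 the Mx1-Cre peaks were 31 to 210 bp away, and the control peaks of 341 and 555 bp overlapped each other by only 20 bp. At chr2:148235190-148235604 the Flt3-ITD peaks were nearest, at 545 and 484 bp, followed by Smc3 del/+ at 927 and 1005 bp and Smc3 fl/del Flt3-ITD at 1046 and 1108 bp. The neighbouring region there was called in all 8 libraries. At chr18:83079083-83079579 the neighbour belonged to Flt3-ITD alone: peaks lay 124 and 136 bp away in its libraries, while Smc3 fl/del Flt3-ITD peaks lay 1110 and 684 bp and Smc3 del/+ peaks 2668 and 2506 bp away. At chr2:56968943-56969970 a control peak of 1028 bp in replicate 1 and of 443 bp in replicate 2 faced Mx1-Cre peaks 977 to 1549 bp away.

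Control-only regions over 10 kb from any Mx1-Cre peak had median percentiles of 21.5 and 18.0 in control replicates 1 and 2, against 20.3 and 15.9 for those at 1 to 10 kb. The region farthest from any Mx1-Cre peak, chr15:29301080-29302250, lay 344440 to 344925 bp from the nearest peak of each of the 6 libraries, and the nearest further control peak was 344372 bp away. It thus stood alone in control too. Its control peaks were 582 and 1067 bp wide at percentiles 27.2 and 23.2. At chr8:32586640-32587004 (329 and 285 bp, percentiles 15.1 and 32.3) the nearest Mx1-Cre peak was 177840 bp away in Smc3 del/+ replicate 1, and the other 5 libraries had none nearer than 260154 bp. At chr11:45136840-45138050 (1211 and 565 bp, percentiles 37.3 and 45.8) the Smc3 fl/del Flt3-ITD libraries had a peak 182132 and 166807 bp away, and the other 4 had none nearer than 314377 bp. The last of the 5 most isolated regions were chr12:82241780-82242239, 134806 bp from the nearest Mx1-Cre peak, and chr14:88745013-88745392, 133771 bp from it. Their lower control percentiles were 8.86 and 3.15. In none of these 5 did a control peak reach a percentile above 45.8.

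Control-only regions rarely stood together. Neighbours on a chromosome were a median of 1855 kb apart, and 621 of the 692 had no other within 50 kb. The rest formed 31 pairs and 3 groups of 3. The tightest group spanned 10.8 kb at chr19:46178975-46189817, where each of the 6 Mx1-Cre libraries had 2 peaks, against 5 in each control library. Its regions were chr19:46178975-46180234, chr19:46186360-46187134 and chr19:46188752-46189817. The control peaks in them were 1260 and 386 bp, 766 and 272 bp, and 885 and 1064 bp wide in replicates 1 and 2, at percentiles between 18.3 and 43.4. Both peaks of each Mx1-Cre library lay in the 2 regions of that span called in all 8 libraries, so the difference in number was that of the control-only regions themselves.

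In the group at chr11:82654054-82692682 the Mx1-Cre libraries had 4 and 3 (Smc3 fl/del Flt3-ITD), 5 and 5 (Flt3-ITD), and 4 and 4 peaks (Smc3 del/+), against 8 and 8 in control. In the group at chr3:41300904-41366367 they had 8 and 8, 4 and 5, and 3 and 3 peaks in the same order, against 10 and 7 in control replicates 1 and 2. The groups overlapped there, with Smc3 fl/del Flt3-ITD above control replicate 2. These spans were chosen for their control-only calls, which by themselves add peaks to both control libraries.

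Around the control-only regions, peaks were sparser in every library. Within 50 kb on either side, and leaving out the region itself, Smc3 fl/del Flt3-ITD libraries had a mean of 7.55 and 7.45 peaks, Flt3-ITD libraries 6.46 and 6.19, Smc3 del/+ libraries 6.0 and 6.05, and control libraries 7.41 and 6.56. Around the other regions called in both control libraries the means were 8.48 and 8.43, 7.44 and 7.17, 6.86 and 6.96, and 8.25 and 7.33. The ratio of these means was 0.863 to 0.891 over the 6 Mx1-Cre libraries, against 0.898 and 0.894 in control replicates 1 and 2. The thinner surroundings thus held in control as well. Both control ratios were just above all 6 others, around regions chosen for having no Mx1-Cre call. Another control-only region lay within 50 kb of 71 control-only regions, which adds peaks to the control libraries alone. The sets also differed in score and were not matched on it.

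Every autosome held control-only regions, between 16 on chromosome 18 and 53 on chromosome 2. As a share of the regions called in both control libraries, they ran between 0.883% on chromosome 8 (24 of 2719) and 1.67% on chromosome 9 (48 of 2882). Chromosome 17 (40 of 2404) came next at 1.66%, and chromosome 4 (50 of 3283) had 1.52%.

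Compared with the regions called only in another genotype, the control-only regions were close in width and score and intermediate in number. The same rule gave 692 regions (0.63% of 109822) for control, 4975 (4.53%) for Smc3 fl/del Flt3-ITD, 363 (0.331%) for Flt3-ITD and 629 (0.573%) for Smc3 del/+. Median region width was 770.5 bp for control, 733 bp for Smc3 fl/del Flt3-ITD, 755 bp for Flt3-ITD and 780 bp for Smc3 del/+. Median percentiles of score in each genotype's own lists were 21.4 and 16.9 for control, 24.7 and 25.6 for Smc3 fl/del Flt3-ITD, 18.3 and 15.8 for Flt3-ITD, and 20.6 and 22.3 for Smc3 del/+. A peak of another genotype lay within 1 kb of 34.4% of the control-only regions, against 18.1% for Smc3 fl/del Flt3-ITD, 53.7% for Flt3-ITD and 39.3% for Smc3 del/+. Median scores were thus low in the genotype-only regions of all 4 genotypes, and no test was made between these sets.

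The order of the genotypes changed with the peaks that entered. With the 61953 highest-scoring peaks of each list, the length of the shortest, the counts were 630 for control, 2309 for Smc3 fl/del Flt3-ITD, 577 for Flt3-ITD and 1155 for Smc3 del/+. Control then fell below Smc3 del/+. Of the 692 control-only regions, 373 (53.9%) were among those 630, so the number was near the first but the regions were partly others. With the upper 50% of each list the counts were 432 for control, 3072, 156 and 513 for the other genotypes in that order, and 20 of the 692 remained. With scores of exactly 1 they were 278 for control, 3016, 90 and 140 for the other genotypes in the same order, with control above Smc3 del/+, and 13 of the 692 remained. Among the full lists, nearly all of the 432 had a peak of another genotype that overlapped them or lay within 1 kb (99.8%). Peaks below the cut counted here even where they overlapped, unlike in the distances given above. When a peak of another genotype within 1 kb also counted as a call, 454 regions were left for control, against 4077, 168 and 382.

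**Figure D5:**
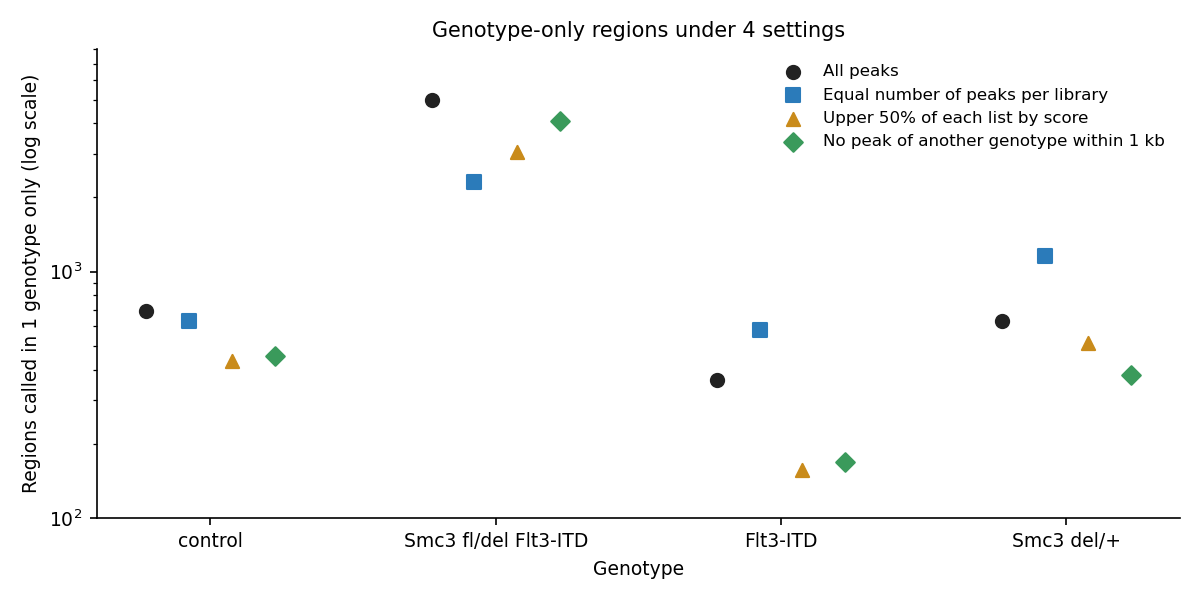
Number of regions called in both libraries of a genotype and in no other library (y axis, log scale) under 4 settings (symbols) for each genotype (x axis). The control count is between 432 and 692, for sets that are only partly the same regions, and lies above that of Smc3 del/+ with all peaks but below it with an equal number of peaks (630 against 1155).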

How the data were processed

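The authors deposited 1 peak list per library in 6 columns without a header: chromosome, start, end, name, score and strand. Reads were aligned with Bowtie to mm9, per the submitters' processing notes; its version, the peak caller and the treatment of the Tn5 offset, duplicates and multiply matching reads are not stated there or in the labels. Peaks were thus called per library, and how the caller splits broad sites could move them. The deposited score of each peak lies between 0.99 and 1, its meaning is not stated, and it served only for ranks and filters within a list. No read counts are held, so depth and its precision are unknown.

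The 557040 peaks, 1550 repeated intervals included, were merged from 1 bp of overlap. Groups follow titles. Within a region the highest score and widest peak of a library were used, and distances run to the nearest peak in another region. The exact permutation tests took all 28 ways to set 2 of 8 libraries apart, with Benjamini-Hochberg adjustment over 2 tests. Named regions were the 10 with the highest lower percentile of score in the control lists (ties by width), the 5 farthest from any Mx1-Cre peak and the largest groups within 50 kb. The side-by-side sites, the score classes and the exception and widest region named with them were chosen after their values were seen. The regions and rules were chosen with earlier results of these data known. The steps were tested on simulated data. Gene names, marker lists and motifs planned for an mm9 genome were not analysed here. Tools were scipy 1.17.1, matplotlib 3.10.9, pandas 2.3.3, numpy 2.4.6 and Python 3.11.15.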

Additional observations from a re-analysis of the deposited data

How the results depend on the processing

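Against 692 control-only regions, the count was 454 when an Mx1-Cre peak within 1 kb counted as a call, 432 with the upper 50% of each list (20 of the 692 among them), 278 with scores of exactly 1 (13 of the 692 among them), and 21 when only the control lists were cut to their upper 50% (20 of the 692 among them). Leaving out both libraries of a genotype loosened the rule and gave 1502 without Smc3 fl/del Flt3-ITD, 1173 without Flt3-ITD and 2491 without Smc3 del/+. Leaving out 1 library gave 819 (without Flt3-ITD replicate 2) to 4619 (without control replicate 2), with 2753 without control replicate 1. The count was 714 without merging across libraries, 841 with merging from 100 bp of overlap, 630 with equal lists and 724 with the sex chromosomes. With control replicate 1 cut to the length of replicate 2, an alternative chosen after seeing the data, it was 469. Median width, 770.5 bp, was 400 and 408 bp without control replicates 1 and 2, 522 bp with merging from 100 bp, 538 bp with the upper 50% of each list, 493.5 bp with scores of exactly 1 and 435 bp with only the control lists cut. The share with an Mx1-Cre peak within 1 kb, 34.4%, was 52.3% with merging from 100 bp, 61.6% with equal lists and 25.1% to 38.1% without the libraries of 1 genotype. With merging from 100 bp and with equal lists, an Mx1-Cre peak overlapping the region counted too, so those shares are not like 34.4%. The difference in peak number of 64.3 turned to -28 with the sex chromosomes, and ran between -4643 without control replicate 2 and 4771 without control replicate 1; that in median width stayed between 9.3 and 15.1 bp. Neither passed the exact permutation test in any setting, but without a control library (smallest p 0.143) or with the block (0.0625) neither could have. In every other setting the smallest p was 0.0357 or 0.0476, so after adjustment neither could reach 0.05 unless both did. With the replicate number as a block (16 assignments) the differences were again 64.3 peaks (exact p = 1) and 12 bp (exact p = 0.4375). Differences in calls between replicates 1 and 2, over all autosomal regions, were not correlated between genotypes (r between -0.0104 and 0.00716 over 6 genotype pairs). Such a correlation cannot exclude a shared batch, since it leaves out common shifts in list length and is little moved by a few sites. The cause of these changes was not tested. Unknown depth limits every absent call: it says that no peak was listed, not that the site was closed.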
